A study of Homo sapiens with 12 samples.

Results

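The genes TIMP1, TIMP2, MDK, GDF15, ANG, IGFBP2, IGFBP4, IGFBP5 and IGFBP6 encode secreted proteins linked to senescence, growth control and matrix turnover, and were described across 12 libraries of polysome RNA. The 9 members were found by their symbols, among 23284 symbols in the table of the first experiment and 12421 in the table of the knockout experiment. They were chosen by measured FPKM values, with results for the STING response in each genotype in view. Values of STING over vector are therefore given for the members as a description without a test. For PERK knockout over wild type, which the choice did not name, limma p-values adjusted over all genes are printed. The choice also had the levels across the 6 groups in view, and this comparison is built from the same levels. These p-values are therefore not independent of that choice and serve as a description too.

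All libraries come from cells of the HEK293 line, which derives from human embryonic kidney, 24 h after transfection with 5 ug of plasmid. STING, listed under the older symbol TMEM173, is the adaptor of cytosolic DNA sensing, and PERK (EIF2AK3) is the endoplasmic reticulum kinase that phosphorylates eIF2alpha. There were 6 groups of 2 libraries. The first experiment held STING and vector, and the knockout experiment held PERK KO cells with STING, PERK KO cells with vector, wild-type cells with STING and wild-type cells with vector. The labels leave unstated how the knockout was made, whether it is 1 clone, and whether replicates are separate cultures. The p-values therefore cover only the variation among the libraries at hand, which can be technical. The comparisons ask whether STING expression changes the RNA found on polysomes and whether PERK is needed for that.

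Cells that senesce or grow under stress release a mixture of cytokines, proteases, protease inhibitors and growth factor carriers. TIMPs bind and block matrix metalloproteinases, midkine (the product of MDK) is a heparin-binding growth factor, and GDF15 is a stress-induced cytokine of the TGF-beta superfamily. Angiogenin, the product of ANG, is a secreted ribonuclease that promotes vessel growth. IGFBPs carry insulin-like growth factors and regulate their access to the receptor, and IGFBP6 prefers IGF-II. All of these proteins enter the endoplasmic reticulum through a signal peptide.

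FPKM scales fragment numbers by transcript length and by the mapped fragments of each library. The first table ran down to 0, with 38.7% to 40.2% of symbols at 0 in a library. In the knockout table the lowest value was 1 in each library, and 13.1% to 18.1% of symbols stood there, so low members cannot show the full size of a drop. Absolute depth is unknown. By the most frequent ratio between low values, the depth of the first experiment's libraries ran from 0.883 to 1 relative to vector library 1. The same ratio ran from 0.824 (knockout STING library 2) to 1.28 (knockout vector library 1) in the knockout experiment, relative to wild-type vector library 1. There the low values used were the lowest above the floor of 1, so the ratio may not measure depth. TMEM173 averaged 67205 ± 2896 FPKM with STING and 14.4 ± 0.836 FPKM with vector in the first experiment (SD, n = 2 each). With STING it averaged 8925 ± 2244 FPKM in knockout cells and 41236 ± 815 FPKM in wild-type cells, a ratio of 0.216, so the genotypes differed in STING RNA as well. EIF2AK3 had the floor value of 1 in 7 of the 8 knockout-experiment libraries and cannot check the knockout label. The 8 epithelial and neural genes typical of the line summed to 159 FPKM in both STING libraries of the first experiment, against 115 and 131 FPKM with vector, and NEFM was listed at 0 throughout that experiment. The 7 fibroblast markers summed to at most 0.287 FPKM with STING and 0.335 FPKM with vector there, and COL1A2, DCN, LUM and THY1 were listed at 0 in each of those libraries. The 7 haematopoietic markers summed to at most 2.54 FPKM with STING and 4.67 FPKM with vector. Total RNA was not analysed here, so RNA amount and ribosome loading cannot be told apart, nor can fewer expressing cells and less RNA per cell.

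By length-scaled level the members fell into an abundant pair and a remainder of lower level. MDK stood between 455 and 1569 FPKM and TIMP1 between 292 and 1047 FPKM over the 12 libraries, at or above at least 97.1% of the symbols listed in a library. IGFBP2 ranged from 8.89 to 47.5 FPKM, ANG from 5.39 to 21.3 FPKM and GDF15 from 1.32 to 46.2 FPKM. The remaining 4 were low, with TIMP2 between 0.941 and 5.33 FPKM, IGFBP4 between 1.28 and 3.94 FPKM, IGFBP5 between 0.268 and 2.96 FPKM and IGFBP6 between 1.95 and 15.7 FPKM. The 2 tables are not on a shared scale, and each comparison was made within a table.

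**Figure D1:**
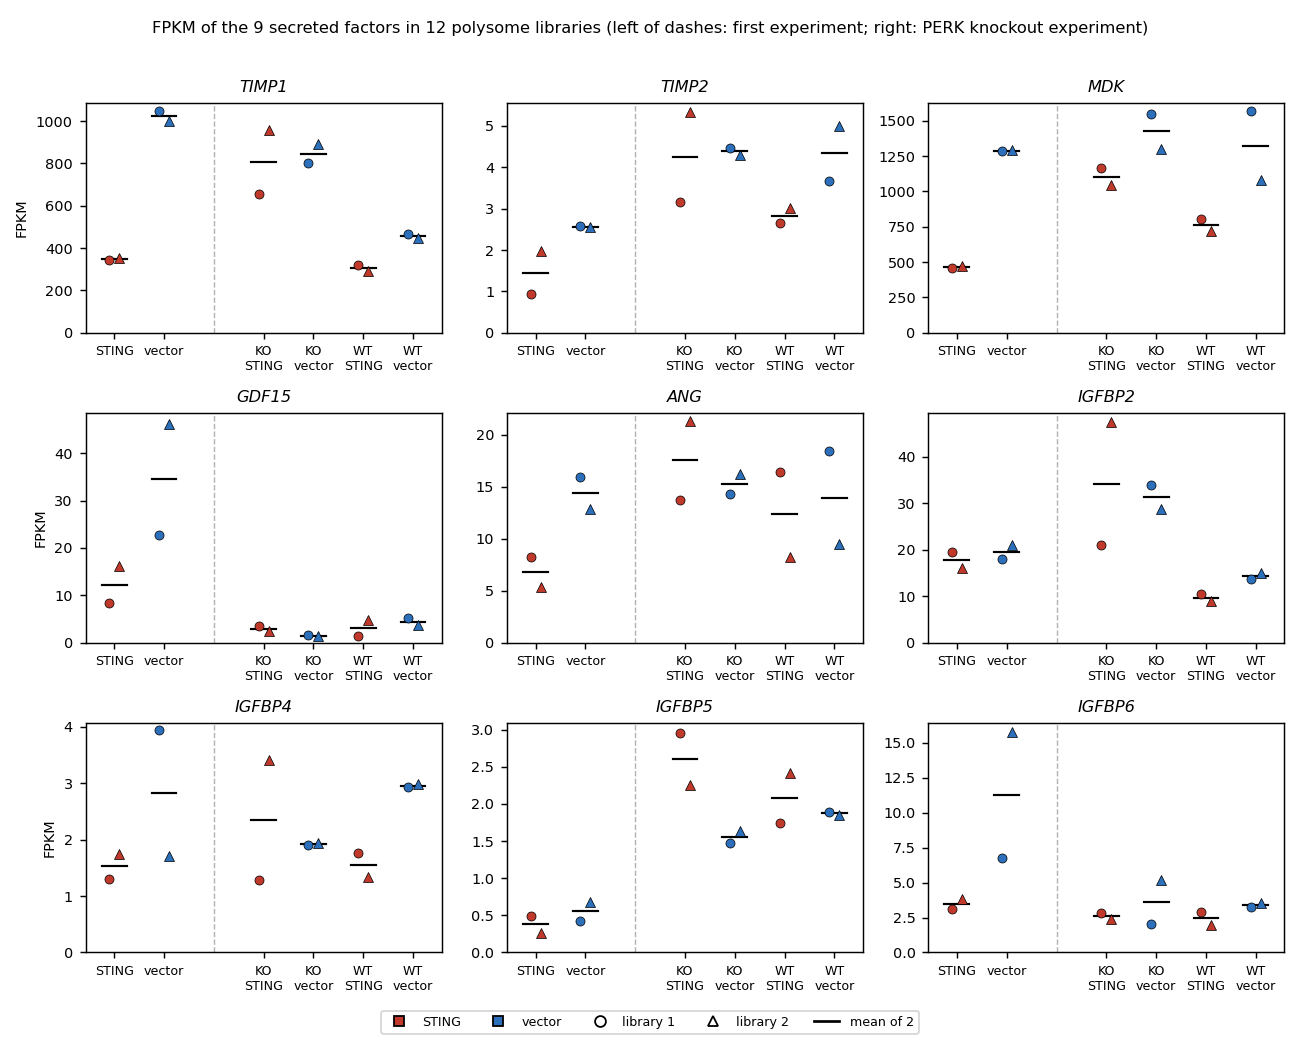
Level of each of the 9 genes (FPKM, linear axis from 0) in the 12 libraries, with the first experiment left of the dashed line and the knockout experiment right of it; points are single libraries and bars the mean of 2. TIMP1 stood at 658 and 957 FPKM in knockout cells with STING, above the 321 and 292 FPKM of wild-type cells with STING.

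The protease inhibitor TIMP1 was the 1 member past the threshold between genotypes. With STING it stood at 658 and 957 FPKM in PERK knockout cells, against 321 and 292 FPKM in wild-type cells. With vector it stood at 800 and 894 FPKM in knockout cells, against 467 and 450 FPKM in wild-type cells. Each knockout library was above each wild-type library, and the ranges of knockout STING and knockout vector overlapped. With STING, TIMP1 was 2.63 times as high in knockout cells (log2 change 1.37, SE 0.21, limma adjusted p = 0.032). With vector it was 1.85 times as high and did not pass (log2 change 0.88, SE 0.21, limma adjusted p = 0.209). The call with STING did not survive the removal of a library: in 8 fits that each left out 1 library, TIMP1 passed in 0, with adjusted p from 0.0524 to 0.262 in limma. It was also missed when only the 2 groups compared were fitted (limma adjusted p = 0.114), while the change stayed at 1.37. With all libraries, TIMP1 passed under the other pseudocounts, filters and scalings (limma adjusted p from 0.00949 to 0.0385). TMEM173 in knockout cells with STING was 0.216 of its level in wild-type cells with STING, so genotype and STING level cannot be told apart in that comparison.

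IGFBP2, a carrier of both insulin-like growth factors, had the largest upward log2 change between genotypes of the 9 members under both plasmids. With STING it stood at 21.0 and 47.5 FPKM in knockout cells, against 10.4 and 8.89 FPKM in wild-type cells. With vector the values were 34.0 and 28.7 FPKM in knockout cells, against 13.8 and 14.9 FPKM in wild-type cells. The groups did not overlap under either plasmid, but the 2 knockout STING libraries lay 2.27 times apart. The log2 change was 1.62 with STING (SE 0.35, limma adjusted p = 0.0687) and 1.07 with vector (SE 0.35, limma adjusted p = 0.294). With STING the limma adjusted p was 0.0237 when the filter was a mean of 5 FPKM, 0.0267 with median-of-ratios scaling and 0.0434 with quantile normalization. It was 0.157 with only the 2 groups compared in the fit, and 0.0597 to 0.37 when 1 library was left out.

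The stretches before the transcription starts of TIMP1 and IGFBP2 are shown because these members had the largest upward changes between genotypes. They are from RefSeq on GRCh38.p14, both on the plus strand, run within the 250 bases before a RefSeq start up to the first exon that GENCODE annotates, and carry no measurement of this study, whose values were made on hg19. IGFBP2 has 3 starts in the table, and 1 is shown.
TIMP1, chrX:47582186-47582312: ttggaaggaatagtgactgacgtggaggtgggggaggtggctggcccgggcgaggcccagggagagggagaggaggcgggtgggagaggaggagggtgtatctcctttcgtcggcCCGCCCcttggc
IGFBP2, chr2:216633170-216633394: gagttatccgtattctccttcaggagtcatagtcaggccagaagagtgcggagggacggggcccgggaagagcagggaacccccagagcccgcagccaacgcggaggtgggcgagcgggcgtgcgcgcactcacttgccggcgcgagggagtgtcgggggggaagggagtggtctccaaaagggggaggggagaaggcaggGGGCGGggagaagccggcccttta
Capitals mark GGGCGG on either strand, the GC box bound by SP1-type factors. Of the 9 members 7 had entries in the promoter table, with 11 windows of 250 bases before a start. GGGCGG was in 7 of the 11, those of TIMP1, GDF15, IGFBP4 and IGFBP6, 2 of the 3 of IGFBP2 and 1 of the 3 of ANG, and in 42.6% of 35116 such windows of the genome. TATAAA was in 2 of the 11, those of GDF15 and IGFBP4, and in 10.7% of all windows. The letters of an AP-1 site, TGANTCA (6.57% of all windows), and of a C/EBP-ATF element, TGATGCAA (0.772%), were in none of the members' windows; no match overlapped another. Such a match is a description of the letters only.

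The growth factor gene MDK had a high level in both genotypes. With STING it stood at 1163 and 1045 FPKM in knockout cells, against 809 and 718 FPKM in wild-type cells. With vector it stood at 1551 and 1303 FPKM in knockout cells, against 1569 and 1081 FPKM in wild-type cells. The groups separated with STING and overlapped with vector. Neither difference passed in limma (log2 change 0.53, SE 0.22, adjusted p = 0.269 with STING; 0.13, SE 0.22, adjusted p = 0.850 with vector). Without wild-type vector library 2 the difference with vector was -0.14 in place of 0.13.

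GDF15 stood low in the knockout experiment. With vector it was at 1.55 and 1.32 FPKM in knockout cells, against 5.23 and 3.66 FPKM in wild-type cells, without overlap. With STING it was at 3.50 and 2.42 FPKM in knockout cells, against 1.39 and 4.72 FPKM in wild-type cells, where the wild-type libraries lay on both sides of the knockout libraries. Neither difference passed (log2 change -1.15, SE 0.40, limma adjusted p = 0.322 with vector, and 0.08, SE 0.40, limma adjusted p = 0.979 with STING). Several of these values are close to the floor of 1.

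ANG, TIMP2 and the other carriers did not pass the test between genotypes. ANG stood at 13.7 and 21.3 FPKM in knockout cells with STING, against 16.4 and 8.27 FPKM in wild-type cells, and at 14.3 and 16.2 FPKM in knockout cells with vector, against 18.4 and 9.47 FPKM in wild-type cells. IGFBP4 with vector was at 1.90 and 1.94 FPKM in knockout cells, against 2.93 and 2.99 FPKM in wild-type cells, a separation that did not pass (limma adjusted p = 0.583). TIMP2 with STING was at 3.15 and 5.33 FPKM in knockout cells, against 2.65 and 3.01 FPKM in wild-type cells, and did not pass either (0.469 in limma). IGFBP5 had adjusted p of 0.635 with STING and 0.756 with vector in limma, and IGFBP6 had 0.963 and 1.

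Counted together, with STING 1 of the 9 members passed, higher in knockout cells. Of all 12254 genes tested 1.75% passed (1.21% higher and 0.547% lower). The members were chosen with these levels in view, so their counts are a description only. With vector 0 of 9 passed in limma, against 0.049% of genes (0.0326% higher and 0.0163% lower), while 3 members had an unadjusted p under 0.05, against 12.4% of all genes. With STING the groups of 4 members (TIMP1, TIMP2, MDK and IGFBP2) did not overlap with knockout higher, against 24.8% of all genes, and 0 with knockout lower, against 20.6%. With vector 2 (TIMP1 and IGFBP2) did not overlap with knockout higher, against 12.5%, and 3 (GDF15, IGFBP4 and IGFBP5) with knockout lower, against 25.8%. With median-of-ratios scaling IGFBP5 overlapped with vector, and the other separations stayed. The shares of all genes on that scale were 21.1% higher and 17.8% lower in knockout cells with vector. With STING they were 26.4% and 22.3%. The median change of the members was 0.42 with STING and 0.03 with vector, against 0.02 and -0.09 for all genes. Markers of the line moved with genotype too: the 8 listed epithelial and neural genes summed to 353 and 501 FPKM in knockout cells with STING, against 170 and 180 FPKM in wild-type cells, and to 297 and 396 FPKM in knockout cells with vector, against 171 and 239 FPKM in wild-type cells. Of these 8, 1 passed under each plasmid, the keratin gene KRT8, at 67.9 and 68.3 FPKM in knockout cells with STING, against 11.8 and 13.7 FPKM in wild-type cells (limma adjusted p = 0.0228). The part of this shift in the members' differences was not tested. Of 7 fibroblast genes only COL1A1 was listed in the knockout table, at up to 1.75 FPKM in knockout cells and at the floor in wild-type cells. Of 5 hepatocyte genes 2 were listed, only 1 of them above the floor, and that 1 did not pass. Its log2 change was 1.109 with STING and 1.105 with vector, each with an unadjusted limma p under 0.05. The 2 genes summed to 4.48 and 9.79 FPKM in knockout cells with STING, against 3.00 and 3.14 FPKM in wild-type cells with STING. With vector they summed to 5.73 and 8.79 FPKM in knockout cells, against 3.11 and 3.50 FPKM in wild-type cells. The 2 listed haematopoietic genes, of 7, summed to 4.29 and 12.4 FPKM in knockout cells with STING. In wild-type cells with STING they summed to 5.92 and 6.80 FPKM.

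**Figure D2:**
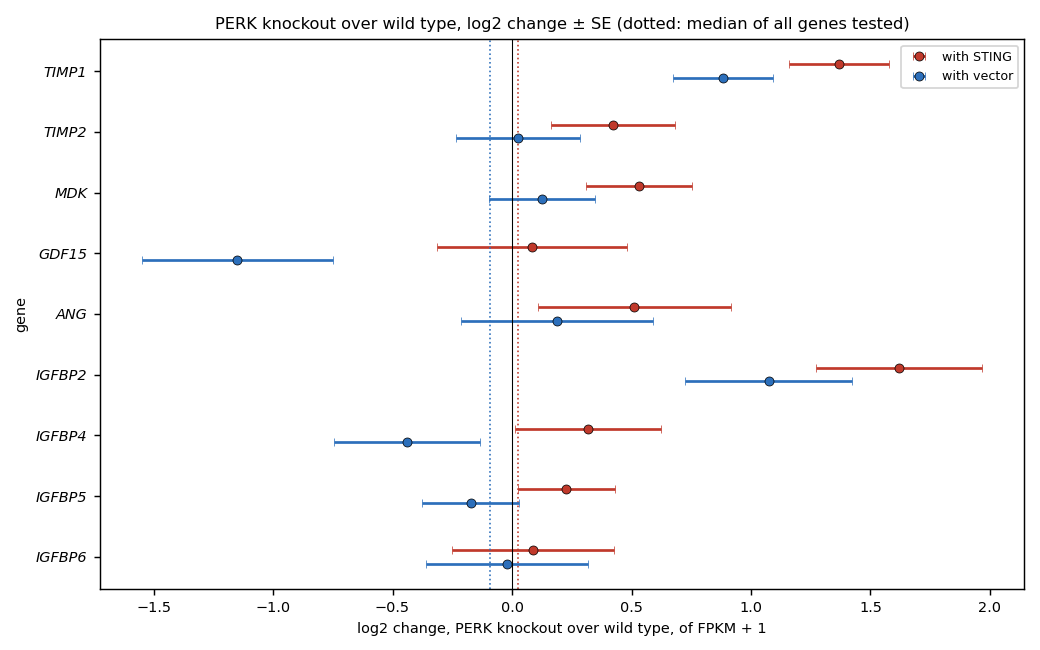
Log2 change of PERK knockout over wild type for each gene with STING and with vector (points, log2 of FPKM + 1, with limma SE as bars; dotted lines, median of all genes). TIMP1 had 1.37 with STING and 0.88 with vector, and IGFBP2 had 1.62 and 1.07.

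In the first experiment TIMP1 and MDK were both lower with STING. TIMP1 stood at 344 and 352 FPKM with STING, against 1047 and 998 FPKM with vector. MDK stood at 455 and 473 FPKM with STING, against 1286 and 1292 FPKM with vector. Replicates of each gene lay close together and the groups were far apart. The means with STING were 0.341 (TIMP1) and 0.360 (MDK) of those with vector, or log2 changes of -1.55 (SE 0.10) and -1.47 (SE 0.10). The size depended on the scaling. The changes were -1.49 (TIMP1) and -1.41 (MDK) with median-of-ratios scaling, and -1.12 and -1.05 with quantile normalization. Without trend and robust estimation the SE was 0.15 for each. Of the 9464 genes tested, 1.07% had a lower value than TIMP1 and 1.23% a lower value than MDK.

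The remaining members of the first experiment were mostly lower with STING as well. GDF15 stood at 8.30 and 16.2 FPKM with STING, against 22.7 and 46.2 FPKM with vector (log2 change -1.40, SE 0.48); the groups did not overlap, and replicates spread widely. IGFBP6 stood at 3.10 and 3.81 FPKM with STING, against 6.75 and 15.7 FPKM with vector (-1.36, SE 0.37). ANG stood at 8.23 and 5.39 FPKM with STING, against 15.9 and 12.9 FPKM with vector, a ratio of means of 0.473. IGFBP2 did not separate, at 19.5 and 16.1 FPKM with STING and 18.0 and 21.1 FPKM with vector (-0.13, SE 0.19). TIMP2 was at 0.941 and 1.97 FPKM with STING, against 2.57 and 2.56 FPKM with vector (-0.57, SE 0.28), whereas IGFBP4 overlapped, at 1.31 and 1.75 FPKM with STING and 3.94 and 1.71 FPKM with vector. IGFBP5 stood below the mean of 1 FPKM needed for the fit, at 0.489 and 0.268 FPKM with STING and 0.426 and 0.679 FPKM with vector. Over all genes 11.8% passed in this comparison, 9.29% lower with STING and 2.51% higher; the choice of members used it, so no calls are given for them. The split of 238 higher and 879 lower genes was 287 and 695 with median-of-ratios scaling and 347 and 432 with quantile normalization. The groups of TIMP1, TIMP2, MDK, GDF15, ANG and IGFBP6 did not overlap, lower with STING, against 32.8% of all genes, and 0 members were higher without overlap, against 24.2%. Markers of the line also moved in this comparison: 1 of 6 tested was higher, VIM, at 75.0 and 75.1 FPKM with STING, against 47.5 and 44.9 FPKM with vector (log2 change 0.69, SE 0.13, limma adjusted p = 0.0157). Its part in the members' values was not tested.

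**Figure D3:**
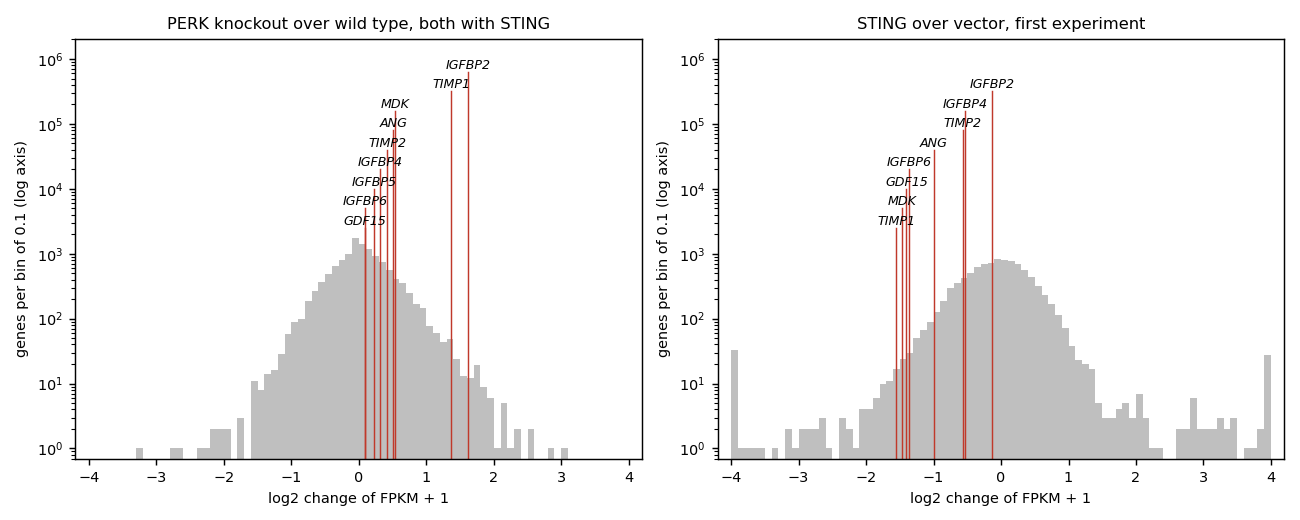
Number of genes per bin of log2 change (log axis; changes beyond ±4 are in the end bins), for PERK knockout over wild type with STING and for STING over vector in the first experiment; red lines mark the members that were fitted. TIMP1 lies at 1.37 for knockout over wild type and at -1.55 for STING over vector.

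In wild-type cells of the knockout experiment the differences of TIMP1 and MDK had the same sign and were smaller. TIMP1 stood at 321 and 292 FPKM with STING, against 467 and 450 FPKM with vector (log2 change -0.58, SE 0.21). MDK stood at 809 and 718 FPKM with STING, against 1569 and 1081 FPKM with vector (-0.77, SE 0.22). Both groups separated, and IGFBP2, IGFBP4, TIMP2 and IGFBP6 also had lower groups that did not overlap, making 6 members. The same held for 52.3% of all genes, whose median change was -0.27; 0 members were higher without overlap, against 3.31%. Relative to that median the log2 value was -0.31 for TIMP1, -0.50 for MDK, -0.37 for IGFBP4 and 0.10 for ANG. With median-of-ratios scaling, which moved the median gene to 0.05, TIMP1 had -0.19, MDK -0.38 and ANG 0.19 in place of -0.17. The scaled MDK values were 902 and 791 with STING and 1399 and 867 with vector, which overlap. TIMP2 and IGFBP6 overlapped too on that scale, which left TIMP1, IGFBP2 and IGFBP4, 3 members, lower without overlap, against 16.7% of all genes, and IGFBP5 higher, against 30%. In this comparison 1 gene of 12254 passed (0.00816%), TMEM173.

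In knockout cells with STING the members went in different directions. TIMP1 overlapped, at 658 and 957 FPKM with STING and 800 and 894 FPKM with vector (log2 change -0.09, SE 0.21), and had 0.10 with median-of-ratios scaling and 0.19 with quantile normalization. MDK was lower without overlap, at 1163 and 1045 FPKM with STING, against 1551 and 1303 FPKM with vector (-0.37, SE 0.22). With median-of-ratios scaling MDK had -0.18, and its scaled values of 1370 and 1052 with STING overlapped those of 1612 and 1144 with vector. GDF15 was higher, at 3.50 and 2.42 FPKM with STING, against 1.55 and 1.32 FPKM with vector (0.69, SE 0.40), and IGFBP5 was higher, at 2.96 and 2.25 FPKM, against 1.47 and 1.63 FPKM (0.49, SE 0.20). The other 5 overlapped. Thus 1 member was lower and 2 were higher without overlap, against 21.9% and 5.66% of all genes, whose median changed by -0.11. With median-of-ratios scaling 0 were lower and 3 higher (GDF15, IGFBP5 and ANG), against 12.3% and 15.3%. TMEM173 was the 1 gene of 12254 that passed in this comparison (0.00816%).

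**Figure D4:**
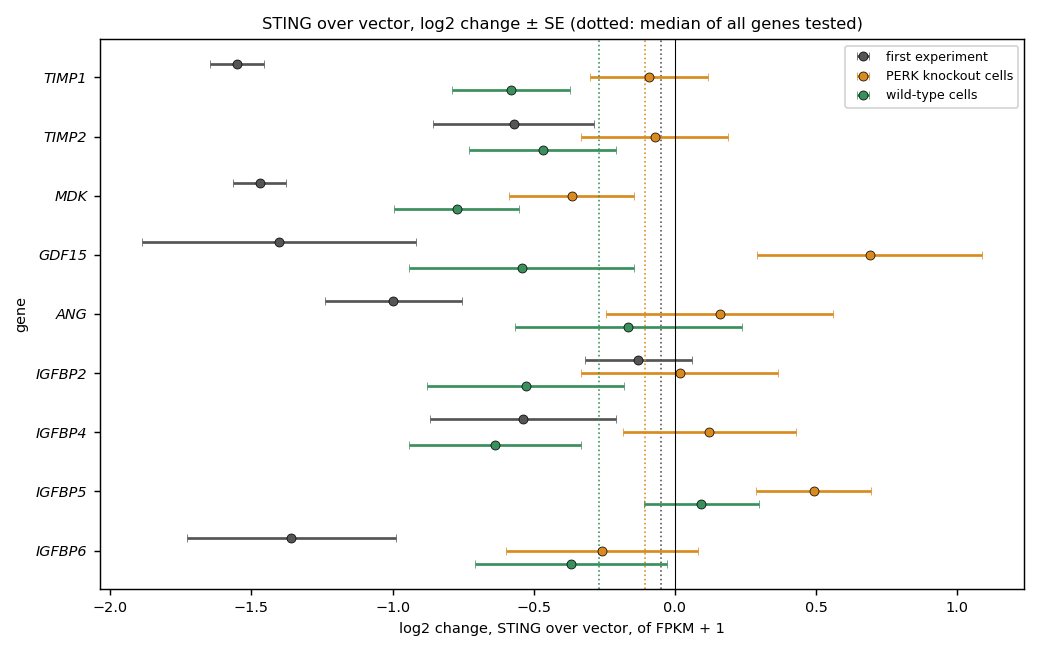
Log2 change of STING over vector for each gene in the first experiment, in PERK knockout cells and in wild-type cells (points, log2 of FPKM + 1, with limma SE as bars; dotted lines, median of all genes; IGFBP5 was not fitted in the first experiment). TIMP1 had -1.55 in the first experiment, -0.09 in knockout cells and -0.58 in wild-type cells.

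The difference between the STING changes of the genotypes, knockout minus wild type, was positive for the 9 members as deposited, and for 8 with median-of-ratios scaling or quantile normalization, where IGFBP6 had -0.03 and -0.04. It was 0.49 (SE 0.30) for TIMP1, 0.41 (SE 0.31) for MDK, 1.23 (SE 0.56) for GDF15 and 0.76 (SE 0.43) for IGFBP4. The other 5 ran from 0.11 for IGFBP6 to 0.54 for IGFBP2. The median of all genes was 0.13 as deposited, so most genes were positive too, and -0.02 with median-of-ratios scaling. As deposited, the value of IGFBP6, the lowest of the 9, was above that of 47.2% of genes. The choice of members had the STING responses in view, so their shared sign is a description only. Of 12254 genes, 0 passed this interaction test in limma (0%), and 474 had an unadjusted p under 0.05. The genotypes differed in STING level, as given above, and this bears on these values too.

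Within the knockout experiment the groups could be ordered for few members. TIMP1 ran from knockout vector and knockout STING, which overlapped, to wild-type vector and then wild-type STING, each separated from the next. IGFBP2 had the same order with the 2 knockout groups exchanged. For MDK the upper 3 groups overlapped in turn, and wild-type STING lay below them. On the median-of-ratios scale its wild-type STING and wild-type vector groups overlapped. The neighbours of ANG overlapped throughout. IGFBP5 was lowest in knockout cells with vector, below the other 3 groups, which overlapped in turn, although it overlapped wild-type vector with median-of-ratios scaling.

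The genes whose profiles over the 8 libraries of the knockout experiment were most like that of TIMP1 were NDRG4, CTSH, BNIP3, SERPINF1 and KCNG1. Likeness was the root mean square difference between log2 profiles, each centred on its own mean. It ran from 0.0993 for NDRG4 to 0.145 for KCNG1, against a median of 0.663 over 6339 genes with a mean of at least 5 FPKM. CTSH, the lysosomal protease cathepsin H, averaged 61.2 FPKM in knockout cells with STING and 54.9 FPKM in knockout cells with vector, against 19.1 and 31.2 FPKM in wild-type cells with STING and with vector. SERPINF1 encodes the secreted factor PEDF and averaged 47.0, 45.7, 17.8 and 24.7 FPKM in that order. For MDK the nearest were TSPAN17, ARL6IP4, INO80E, SPSB2 and TRMT2A, from 0.0771 to 0.124 against a median of 0.434. TIMP1 and MDK themselves differed by 0.478, while TIMP1 and IGFBP2 differed by 0.220.

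ANG shares its locus with RNASE4, a second secreted ribonuclease of the same family, so that reads could be split between them. RNASE4 fell to 3.61 and 3.39 FPKM with STING, against 6.75 and 8.83 FPKM with vector in the first experiment (log2 change -0.96, SE 0.23, limma adjusted p = 0.0343), and passed in 0 of 4 fits that left out 1 library. In GENCODE, TIMP1 lies within SYN1 on the opposite strand, and the library protocol does not keep strand; SYN1 was listed at 0 in the 4 libraries of the first experiment. Of 9 relatives of the members (RNASE4 among them), 3 were tested in the first experiment, and 1 passed. TIMP3 and IGFBP7 did not pass, at 1.88 ± 0.285 and 5.36 ± 0.813 FPKM with STING against 2.85 ± 1.12 and 6.29 ± 3.65 FPKM with vector (SD, n = 2 each). In the knockout experiment 4 of the 9 were tested and 0 passed in any comparison with limma; 1 had an unadjusted p under 0.05 for STING over vector in wild-type cells and 0 in the others.

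Among 20 proteases that TIMPs inhibit, proteases of IGFBPs and related regulators, 0 passed in any comparison with limma. With STING, 12 were tested between genotypes and 4 had an unadjusted p under 0.05, against 17.4% of all genes, with a median change of 0.25, against 0.02 for all genes. ADAM15, a membrane-bound metalloproteinase, stood at 33.2 and 70.1 FPKM in knockout cells with STING, against 15.1 and 19.1 FPKM in wild-type cells (log2 change 1.46, SE 0.42, limma adjusted p = 0.132). CTSD, the lysosomal protease cathepsin D that can also cut IGFBPs, stood at 59.0 and 123 FPKM, against 38.0 and 37.4 FPKM in wild-type cells. STC2, whose product inhibits the IGFBP protease PAPP-A, averaged 17.7 ± 9.04 FPKM in knockout cells and 11.9 ± 0.995 FPKM in wild-type cells. HTRA1, of lower level, had a larger change than ADAM15 with STING (log2 change 1.61, SE 0.34, limma adjusted p = 0.0671). It stood at 4.77 and 8.02 FPKM in knockout cells, against 1 (the floor) and 1.81 FPKM in wild-type cells. In the first experiment 8 were tested, with 1 at an unadjusted p under 0.05, against 27.7% of all genes.

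Of 25 receptors, ligands and partners, 0 passed in any comparison with limma. In the first experiment 9 were tested and 6 had an unadjusted p under 0.05, against 27.7% of all genes. CD63, a tetraspanin that binds TIMP1, averaged 540 ± 22.5 FPKM with STING and 660 ± 8.84 FPKM with vector there (limma adjusted p = 0.0977). NCL, the nucleolin that binds midkine, averaged 17.0 ± 2.48 FPKM with STING and 10.5 ± 1.07 FPKM with vector (0.0778 in limma). RNH1, the inhibitor that binds angiogenin, averaged 29.9 ± 1.33 FPKM with STING and 34.6 ± 2.77 FPKM with vector. NCL was instead lower with STING in the knockout experiment, and did not pass there either. Its log2 change was -0.95 (SE 0.39) in wild-type cells and -0.46 (SE 0.39) in knockout cells. In the knockout experiment 16 were tested, and 1 had an unadjusted p under 0.05 between genotypes with STING, 1 with vector, and 4 for STING over vector in wild-type cells, against 17.4%, 12.4% and 12.8% of all genes.

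Of 48 other secreted senescence and growth factors, 29 were tested between genotypes. With STING 1 was higher and 2 were lower in knockout cells, against 1.21% and 0.547% of all genes. GAL, the neuropeptide galanin, rose to 479 and 418 FPKM in knockout cells with STING, against 155 and 232 FPKM in wild-type cells (log2 change 1.23, SE 0.22, limma adjusted p = 0.0439). The chemokine CCL5 fell to 25.5 and 15.9 FPKM in knockout cells with STING, against 112 and 95.7 FPKM in wild-type cells (-2.30, SE 0.28, limma adjusted p = 0.0251). With vector CCL5 was the 1 of 29 that passed, at 17.3 and 11.9 FPKM in knockout cells, against 131 and 110 FPKM in wild-type cells (-2.97, SE 0.28, limma adjusted p = 0.0402). The matricellular gene CYR61 fell to 3.33 and 4.47 FPKM in knockout cells with STING, against 11.1 and 9.60 FPKM in wild-type cells (-1.22, SE 0.23, limma adjusted p = 0.0475). In 8 fits that left out 1 library, GAL and CYR61 passed in 0, and CCL5 in 1 with STING and in 2 with vector.

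In the first experiment 19 of these factors were tested, and 2 were higher and 2 lower with STING, against 2.51% and 9.29% of all genes. CYR61 rose to 20.8 and 18.6 FPKM with STING, against 6.43 and 4.23 FPKM with vector (log2 change 1.73, SE 0.23, limma adjusted p = 0.00462). HDGF, a growth factor also found in the nucleus, rose to 21.6 and 22.6 FPKM with STING, against 12.8 and 13.0 FPKM with vector (0.74, SE 0.17). The abundant cytokine MIF fell to 19705 and 19092 FPKM with STING, against 31550 and 27141 FPKM with vector (-0.59, SE 0.11), and PLAUR, the urokinase receptor, fell to 4.08 and 2.99 FPKM, against 6.80 and 10.4 FPKM (-1.07, SE 0.27). Limma adjusted p was 0.0316 for HDGF, 0.0116 for MIF and 0.0401 for PLAUR. Of 4 fits that left out 1 library, CYR61 and MIF passed in 2, PLAUR in 1 and HDGF in 0. In the same factors, 0 of 29 passed for STING over vector in wild-type cells (2 with an unadjusted p under 0.05, against 12.8% of all genes) and 0 in knockout cells (0, against 7.7%).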

How the data were processed

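Polysome-fraction RNA of HEK293 cells was made into Smart-seq2 libraries and sequenced in paired ends, per the labels' protocols. The FPKM values were made by the authors; the submitters' processing notes name TopHat2 2.1.1, Cufflinks 2.2.1 and build hg19. The deposited table of the knockout experiment does not name its unit and was read as FPKM from its values, the lowest of which is 1 in each library, taken as a floor. Which annotation was used is not given in the sources used here. All members, lists and tests were chosen with earlier results of these data known.

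Each table was fitted separately as log2(FPKM + 1) in limma 3.58.1 (R 4.3.3), after dropping constant genes and those averaging under 1 FPKM (9464 and 12254 genes kept), with 1 mean per group, an intensity trend and robust eBayes. Tests were two-sided, with Benjamini-Hochberg adjustment over all genes at 0.05. Changes of low genes are understated on this scale. The procedure was run on simulated data with planted changes larger than any member's fitted difference between genotypes. That run does not show whether differences of the members' size can be found. Groups and replicate numbers came from the titles. Pearson r between log2 values of replicates, across genes, was 0.948 to 0.991. All 9 members are named; from each list, the genes of highest mean level and those that passed; and, for TIMP1 and MDK, the 5 genes with the most similar profile. Alternatives were other pseudocounts, filters, scalings and fits, a replicate block, and leaving out each library. Absolute depth is unknown, so no counting intervals are given.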

Additional observations from a re-analysis of the deposited data

Results flagged for a closer look

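GDF15 differed between STING and vector in opposite directions in the first experiment and in PERK knockout cells. In the first experiment both STING libraries were below both vector libraries, with a ratio of means of 0.356. In knockout cells both STING libraries were above both vector libraries, with a ratio of means of 2.07. In wild-type cells of the knockout experiment the groups overlapped, at 1.39 and 4.72 FPKM with STING and 5.23 and 3.66 FPKM with vector. The difference between the first experiment and knockout cells was not tested. Over all genes, 32.8% were lower without overlap in the first experiment and 5.66% higher without overlap in knockout cells. The 2 experiments are not on a shared scale. TMEM173 with STING averaged 67205 FPKM in the first experiment and 8925 FPKM in knockout cells. The knockout vector libraries, at 1.55 and 1.32 FPKM, stood near the floor of 1.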

How the results depend on the processing

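The number of genes passing between genotypes moved with the settings, and the cause was not tested. With vector 6 genes passed (PERK knockout over wild type); the number was 17 with a pseudocount of 0.1, 32 with a mean of at least 5 FPKM, 53 with median-of-ratios scaling, 24 with quantile normalization, 0 without trend and robust estimation and 0 with the 2 groups alone. With STING 215 passed, against 356 with a mean of at least 5 FPKM, 449 with median-of-ratios scaling, 468 with quantile normalization and 0 with the 2 groups alone. Of the members, 1 passed with STING, against 2 under those first 3 settings (TIMP1 and IGFBP2) and 0 with the 2 groups alone. For STING over vector in the first experiment 1117 passed, against 580 with no filter and 17 without trend and robust estimation. Leaving out 1 library gave 0 to 3 genes between genotypes with vector, 0 to 128 with STING and 0 to 0 members with STING. It gave 38 to 818 genes in the first experiment, with 42 without STING library 1, 38 without STING library 2 and 686 without vector library 2. It gave 1 to 2 genes for STING over vector in wild-type cells and 1 to 3 in knockout cells. The labels do not tie same-numbered libraries together. Their deviations correlated with r over 0.1 in 5 of 6 pairs of groups of the knockout experiment (0.0418 to 0.528) and at 0.0741 in the first experiment. Pairing needed r over 0.1 in each pair, so the block was kept as an alternative, and a shared source of same-numbered libraries in the knockout experiment was not tested. With the replicate block 105 genes passed with vector and 851 with STING between genotypes, 3 members passed with STING (TIMP1, IGFBP2 and MDK, limma adjusted p = 0.00917, 0.0301 and 0.0489), and 2 genes passed for STING over vector in knockout cells. Among members that did not pass, some small differences between genotypes changed sign. With vector, IGFBP6 had 0.01154 with a pseudocount of 5, 0.1029 with median-of-ratios scaling and 0.03927 with quantile normalization. With STING, GDF15 had -0.01121 with quantile normalization. Leaving out 1 library with vector gave -0.1564 to 0.2081 for TIMP2, -0.1426 to 0.3947 for MDK, -0.2562 to 0.6342 for ANG and -0.5342 to 0.4921 for IGFBP6. With STING it gave -0.5454 to 0.7137 for GDF15, -0.1569 to 0.7924 for IGFBP4 and -0.1164 to 0.2901 for IGFBP6. With 2 libraries a group and a floor of 1 FPKM, differences of the low members were hard to detect.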
